A study of Mus musculus with 12 samples.

Results

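The transcripts described here are those of 6 genes that load and display peptides on major histocompatibility complex (MHC) class I molecules: H2-K1, H2-D1, B2m, Tap1, Tap2 and Tapbp. They were chosen by name from the 13886 genes of the count matrix, all 6 were found there, and all 6 passed the filter on low counts in every fit. The values are unique molecular identifier (UMI) counts from 5' sequencing of RNA in droplets, for 6000 B cells and plasma cells from draining lymph nodes of 3 mice. The mice, numbered 1 to 3, had been primed with the hapten-carrier conjugate NP-KLH in Sigma Adjuvant System and given tamoxifen by gavage. Cells were taken at day 16 of the primary response, 5 days after tamoxifen, as live IgD-negative cells carrying the eYFP reporter. All 3 mice had the same treatment, so each comparison is between cell states or cell cycle phases of the same animals. There was no group without immunisation or tamoxifen. No source used here gives the promoter that drives Cre or the strain, sex and age of the mice. The label mouse comes from barcoded antibodies to CD45, and cells of the 3 mice were pooled within the plasma cell and the other sorted fraction before capture.

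Class I molecules show short peptides from proteins made inside the cell to CD8 T cells, and nearly all nucleated cells carry them. H2-K1 and H2-D1 encode the classical heavy chains that bind the peptide. B2m encodes beta-2 microglobulin, the light chain that every heavy chain needs to fold and reach the surface. Tap1 and Tap2 encode the paired subunits of the transporter that pumps peptides from the cytosol into the endoplasmic reticulum (ER). Tapbp encodes tapasin, which tethers empty heavy chains to that transporter and edits the peptides they bind. Interferon-induced factors, NF-kB and the NLRC5 complex at the X and Y boxes are known activators of these genes. In the germinal center (GC), B cells divide and mutate their receptors in the dark zone (DZ), are selected in the light zone (LZ), and leave as memory or plasma cells (PC).

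In GRCm38 coordinates and GENCODE M21, 5 of the 6 genes lie in the MHC on chromosome 17. Tapbp is at chr17:33915899-33929292 on the plus strand and H2-K1 at chr17:33996017-34000347 on the minus strand. Tap1, at chr17:34187553-34197225, and Tap2, at chr17:34203527-34216321, are on the plus strand, with the immunoproteasome gene Psmb8 between them. H2-D1 is at chr17:35262730-35267499 on the plus strand, and B2m lies outside the complex at chr2:122147686-122153083 on the plus strand. The start of Tap1 overlaps the start of Psmb9, which runs the other way and ends at 34187764. No source used here says whether the counting used strand, so UMIs from that overlap could belong to either gene. H2-K1 and H2-D1 belong to a family of close copies. Of 90-base windows along the longest coding transcript, 0.131% of 1530 in H2-K1 and 5.46% of 2013 in H2-D1 occurred exactly in another gene, and none of the first 300 did. These are shares of windows and not of reads, so they do not measure how uncertain the counts of H2-D1 are.

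Sequence upstream of the RefSeq start is shown for the genes whose transcripts moved together across states. It comes from RefSeq (GRCm38.p6), where 5 of the 6 members had an entry of 250 bases before to 50 after the start and Tap2 had none. The H2-K1 stretch covers chr17:34000348-34000457 on the minus strand and the B2m stretch chr2:122147548-122147686 on the plus strand, each from the first match to the start. The short H2-D1 stretch covers chr17:35262924-35262952 on the plus strand and holds its first 2 matches only. That stretch lies inside H2-D1 as GENCODE M21 places the gene, from 35262730. The RefSeq entry of Tapbp likewise lies inside its GENCODE gene. For these 2 genes the sources set different starts, and upstream refers to the RefSeq start only. Capitals mark the matches to the motifs named below.
H2-K1: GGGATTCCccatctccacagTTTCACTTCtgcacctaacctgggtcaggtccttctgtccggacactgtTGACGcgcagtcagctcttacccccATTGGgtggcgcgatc
H2-D1: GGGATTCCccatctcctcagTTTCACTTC
B2m: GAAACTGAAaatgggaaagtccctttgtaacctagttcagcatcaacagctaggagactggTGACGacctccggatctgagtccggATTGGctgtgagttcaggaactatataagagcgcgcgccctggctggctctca
The H2-K1 and H2-D1 stretches were identical at 28 of 29 bases between the first 2 matches, and at 97 of 110 bases up to the H2-K1 start when aligned without gaps. In that order the H2-K1 capitals begin with GGGATTCC (an NF-kB motif) and the reverse complement of GAANNGAAA (a core of the interferon-stimulated response element). TGACG (the half-site of the X2 box) and ATTGG (the Y box) follow. B2m carried GAAANNGAA, another form of that core with GAAA before GAA, then TGACG and ATTGG. Both strands were searched over the 300 bases of each entry, and the 2 response element motifs can overlap each other. Of 27025 promoters of that length, 1.07% held GGGATTCC, 7.56% GAANNGAAA, 8.57% GAAANNGAA, 21% TGACG and 37.9% ATTGG. The NF-kB motif GGGANTTCC, present in 1.70% of promoters, had no match in the 5 entries. GGGATTCC and GAANNGAAA were added to the search after the sequences had been read. Tap1 held 1 TGACG at 86 to 82 bases before its start. It also held 1 reverse complement of ATTGG at 222 to 218 bases before the start, and Tapbp held 2 ATTGG. A match is a description of letters and not a site of binding.

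The authors' annotation gives 3040 DZ, 2213 LZ, 165 LZtoDZ (cells passing from light to dark zone), 396 preMem (pre-memory), 49 prePC (pre-plasma cell) and 137 PC. Their markers fit these names: Cxcr4 was highest in DZ, Cd83 and Cd86 in LZ, Ccr6 and Klf2 in preMem, and Xbp1 and Jchain in PC. In prePC the plasma cell regulator Prdm1 was at 28.4 CPM (UMIs of a gene scaled to a common library total), beside 0.331 in DZ, and the secretory gene Fkbp11 was at 0. Mice 1 to 3 gave 1491, 2079 and 2430 cells and between 12669908 and 20638376 UMIs. Depth differed widely, from a median of 4119 UMIs per cell in preMem to 24018 in PC. Immunoglobulin genes took 36.4% of PC UMIs and between 0.818% and 2.96% in the other states. Cell names fall into 2 series of barcodes, and series 2 held 117 of the PC but only 2 prePC and 3 LZtoDZ. No source used here says whether a series is a capture well. No barcode was shared between mice. The prePC sums rest on 17, 22 and 10 cells, and the myeloid marker list (4 of 7 genes in the matrix) summed to between 7.38 and 422.5 CPM in them. The T cell list (5 of 5 genes) summed to between 0 and 47.97 CPM there and to at most 5.20 in any other state. Of the myeloid list, C1qa was at 0 in prePC and Lyz2 was the highest. Cells with 2 or more UMIs of T cell, NK cell, myeloid, stromal or erythroid marker genes numbered 32 DZ, 31 LZ, 4 LZtoDZ, 3 preMem, 3 prePC and 9 PC.

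With TMM scaling, class I heavy and light chain transcripts were higher in the states outside the germinal center than in those within it. Levels are CPM of the UMIs summed per mouse and state, scaled by trimmed mean of M values (TMM) factors, with SD over 3 mice. They are compared within a gene and not between genes. H2-K1 averaged 590 ± 93.1 CPM in DZ, 634 ± 131 in LZtoDZ, 873 ± 129 in LZ, 1777 ± 263 in prePC, 2039 ± 304 in preMem and 4028 ± 832 in PC. H2-D1 averaged 621 ± 80.3 in LZtoDZ, 800 ± 90.3 in DZ, 1011 ± 134 in LZ, 1982 ± 261 in prePC, 2020 ± 190 in preMem and 3671 ± 630 in PC. For both heavy chains, the 3 GC states and the 3 states outside fell into separate ranges. The prePC and preMem values overlapped, with preMem above prePC in 2 of 3 mice, and no test was made between them. That PC stood above preMem and prePC holds with TMM factors only, as shown with the PC values.

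**Figure D1:**
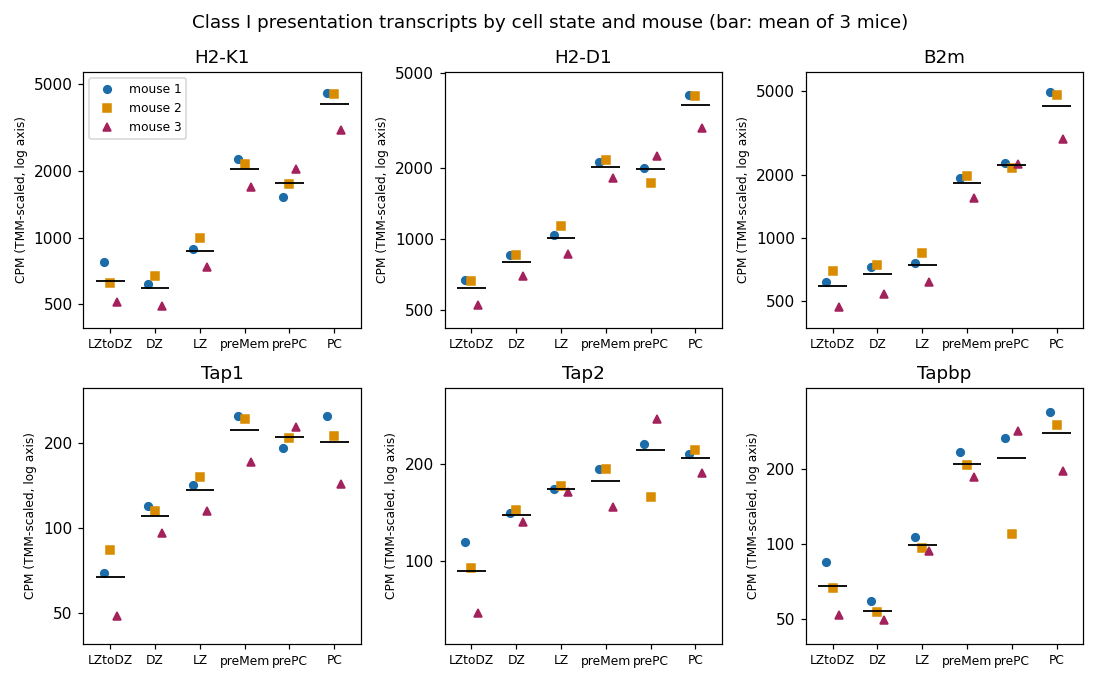
CPM (TMM-scaled, log axis) of the 6 genes in each state, 1 symbol per mouse, with a bar at the mean of 3 mice. On this scale H2-K1, H2-D1 and B2m are highest in PC (means of 4028, 3671 and 4235; without scaling factors PC mice overlap prePC or preMem), while Tap1 and Tap2 have overlapping mice in preMem, prePC and PC.

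B2m, the shared light chain, averaged 590 ± 115 CPM in LZtoDZ, 668 ± 114 in DZ, 741 ± 117 in LZ, 1814 ± 230 in preMem, 2224 ± 66.7 in prePC and 4235 ± 1105 in PC. Neighbouring GC states overlapped, and with TMM scaling each step from LZ through preMem and prePC to PC was free of overlap. The transporter genes spanned a smaller range. Tap1 averaged 67.3 ± 17.5 in LZtoDZ, 110 ± 12.6 in DZ, 137 ± 19.1 in LZ, 202 ± 54.4 in PC, 210 ± 18.2 in prePC and 222 ± 43.5 in preMem. Tap2 averaged 92.9 ± 22.8 in LZtoDZ, 139 ± 5.76 in DZ, 167 ± 3.91 in LZ, 177 ± 26.5 in preMem, 207 ± 17.7 in PC and 220 ± 58.6 in prePC. Only the lowest steps were separate for them: LZtoDZ lay below DZ for both genes, and DZ below LZ for Tap2. Tapbp averaged 53.9 ± 4.66 in DZ, 67.6 ± 16.4 in LZtoDZ, 98.8 ± 6.93 in LZ, 210 ± 24.6 in preMem, 221 ± 96.3 in prePC and 278 ± 73.2 in PC. Its LZ values stood apart from the states on both sides, and the 3 states outside the GC overlapped.

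Within the dark and light zones, 2 of the 6 members rose from DZ to LZ, against 11.3% of 8473 genes tested. H2-K1 was at 614, 669 and 488 CPM in the DZ of mice 1, 2 and 3, and at 888, 994 and 737 in the LZ. LZ was above DZ in each mouse, and the groups did not overlap. The log2 fold change was 0.57 ± 0.15 (SE; adjusted p = 0.016, edgeR quasi-likelihood test with mouse as a block and Benjamini-Hochberg adjustment). Tapbp, the tapasin gene, was at 58.8, 53.2 and 49.5 CPM in DZ and 107, 96.5 and 93.3 in LZ, again with no overlap. It changed by 0.88 ± 0.18 (adjusted p = 0.00291 in the same edgeR fit). The other members were higher in LZ on average without passing: H2-D1 by 0.34 ± 0.13 (adjusted p = 0.0766), Tap1 by 0.30 ± 0.12 (adjusted p = 0.104), Tap2 by 0.27 ± 0.15 (adjusted p = 0.245) and B2m by 0.15 ± 0.12 (adjusted p = 0.438). The median of the 6 was 0.32, beside 0.02 over all genes. Of G1 cells alone, the same 2 genes passed, against 5.98% of 9374 genes, with H2-K1 at 0.53 ± 0.10 (adjusted p = 0.000521) and Tapbp at 0.64 ± 0.10 (adjusted p = 8.33e-05). Without mouse 2, H2-K1 stood at 0.53 with adjusted p = 0.163, and in G1 without mouse 3 at 0.48 with adjusted p = 0.0738. The number passing ran from 0 with limma on mean CPM per cell to 5 with DESeq2 or without immunoglobulin genes.

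**Figure D2:**
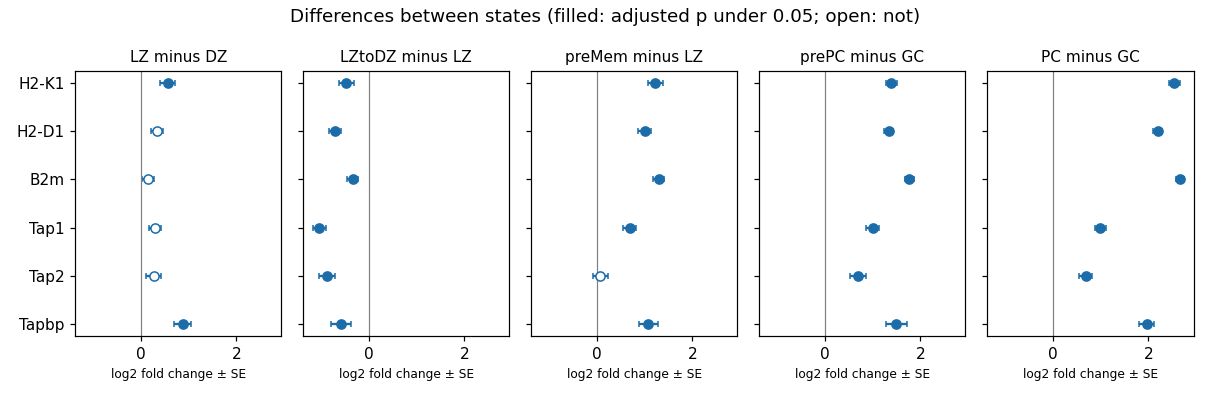
Log2 fold change ± SE of each gene in the 5 comparisons of states, from the edgeR fit over 18 sums of mouse and state; filled points passed an adjusted p of 0.05. All 6 points lie below 0 in LZtoDZ minus LZ and above 0 in prePC minus GC and PC minus GC.

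All 6 members fell in LZtoDZ cells relative to LZ, against 24.3% of 8473 genes that fell. The transporter genes had the largest changes. Tap1 was at 143, 152 and 115 CPM in LZ and at 69.5, 83.6 and 48.8 in LZtoDZ, and Tap2 at 167, 171 and 163 in LZ and at 115, 94.8 and 69.2 in LZtoDZ. Neither gene's groups overlapped. Tap1 changed by -1.03 ± 0.14 (edgeR, adjusted p = 1.94e-05) and Tap2 by -0.87 ± 0.16 (adjusted p = 0.00037). H2-D1, at 1035, 1131 and 867 CPM in LZ and 671, 665 and 529 in LZtoDZ, also had no overlap and changed by -0.70 ± 0.13 (adjusted p = 0.000309). Smaller changes were seen for Tapbp (-0.58 ± 0.20, adjusted p = 0.028), H2-K1 (-0.47 ± 0.15, adjusted p = 0.021) and B2m (-0.33 ± 0.12, adjusted p = 0.032). The median of the 6 was -0.64, beside -0.08 over all genes. Calls for those last 3 were fragile. Tapbp and B2m lost theirs without any 1 of the mice: Tapbp had adjusted p = 0.0522, 0.0547 and 0.141 and B2m 0.105, 0.212 and 0.0563 without mouse 1, 2 and 3 in turn, and H2-K1 had 0.342 without mouse 2. Without the mouse block, 3 of the 6 passed, which were Tap1, Tap2 and H2-D1. Only 17 of the 165 LZtoDZ cells were in G1, beside 1235 of the 2213 LZ cells. In S phase alone, Tap1 averaged 67.8 CPM in LZtoDZ and 136 in LZ. B2m, with the smallest change, averaged 610 and 700 there, and its mice overlapped. The part of phase in these changes was not tested. Median depth was 19103 UMIs in LZtoDZ and 6258 in LZ, and these are falls in share of UMIs. Before thinning, the median cell held 12 H2-K1 UMIs in LZtoDZ and 6 in LZ.

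Pre-memory cells had a higher share of UMIs than LZ cells for every member except Tap2. Compared with LZ, 5 of the 6 members rose, against 16.7% of 8473 genes that rose. B2m was at 757, 848 and 616 CPM in LZ and at 1923, 1969 and 1549 in preMem, and changed by 1.30 ± 0.12 (edgeR, adjusted p = 1.29e-06). H2-K1 was at 2269, 2152 and 1694 in preMem and changed by 1.22 ± 0.16 (adjusted p = 2.49e-05). H2-D1 was at 2113, 2145 and 1801 and changed by 1.0 ± 0.13 (adjusted p = 2.41e-05). Every preMem value of these 3 genes lay above every LZ value. Tapbp, at 235, 208 and 186 CPM, changed by 1.08 ± 0.20 (adjusted p = 0.000597), and Tap1, at 250, 244 and 172, by 0.69 ± 0.13 (adjusted p = 0.000927), also with no overlap. Tap2 was at 192, 193 and 147 CPM in preMem against 167, 171 and 163 in LZ, and its groups overlapped. The change of Tap2 was 0.08 ± 0.16 (adjusted p = 0.76). The median of the 6 was 1.04, beside 0.03 over all genes. Median depth was 4119 UMIs in preMem and 6258 in LZ, and these are rises in share of UMIs. Before thinning, the median cell held 9 H2-K1 and 8 H2-D1 UMIs in preMem, beside 6 and 7 in LZ. Tap1 was then found in 59.4% of preMem and 62.9% of LZ cells (means of 3 mice).

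Most preMem cells were in G1, 370 of 396, so the comparison was repeated in G1. There too 5 of the 6 rose, against 10.2% of 9374 genes, with B2m at 1.12 ± 0.08 (edgeR, adjusted p = 2.12e-10), H2-K1 at 0.98 ± 0.10 (adjusted p = 7.25e-08) and Tap2 at -0.21 ± 0.11 (adjusted p = 0.182). Folds over G1 cells were thus somewhat smaller than over all phases for each of the 5. The authors' cluster that holds 374 of the preMem cells also holds 66 LZ cells, and these had 1566 CPM of H2-K1 and 1212 CPM of B2m outside immunoglobulin genes. The other 2147 LZ cells had 981 and 833 CPM, and the preMem cells of that cluster 2167 and 1915. Because the clusters were built from expression, these values are a description with no test. Without scaling factors, the preMem split over all genes moved from 1411 of 2653 calls higher to 1033 of 2668, the median of all genes to -0.10, and Tap2 to -0.06, while the other 5 members kept their calls.

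In the pre-plasma cells, a rare state, all 6 members rose over the average of DZ, LZ and LZtoDZ, against 10.5% of 8473 genes that rose. B2m was at 2283, 2152 and 2236 CPM, beside 698, 761 and 539 in the GC average, and changed by 1.77 ± 0.09 (edgeR, adjusted p = 1.32e-09). H2-K1 was at 1530, 1748 and 2054, and changed by 1.40 ± 0.12 (adjusted p = 5.55e-07). H2-D1 was at 1993, 1715 and 2236, and changed by 1.34 ± 0.10 (adjusted p = 9.57e-08). All prePC values of these genes lay above the GC values of every mouse. Tapbp, at 267, 110 and 285 CPM, was lowest in mouse 2 and changed by 1.5 ± 0.22 (adjusted p = 0.000112). Tap1, at 192, 209 and 228, changed by 1.0 ± 0.14 (adjusted p = 9.22e-05), and Tap2, at 229, 158 and 274, by 0.69 ± 0.16 (adjusted p = 0.00627). The median of the 6 was 1.37, beside -0.07 over all genes. Phase differed too: 42 of 49 prePC were in G1, beside 1078 of 3040 DZ, 1235 of 2213 LZ and 17 of 165 LZtoDZ cells. In G1 alone, prePC sums were left for mice 1 and 2. B2m was there at 2479 and 2720 CPM, against 825 and 1003 in the LZ of these mice. Tap2 was at 262 and 183 in prePC and at 208 and 207 in LZ. No test was made within G1, and the part of phase was not tested.

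The Tap2 value rests on 116 UMIs, and its call was lost without mouse 1 (0.64, adjusted p = 0.103) and without mouse 3 (0.48, adjusted p = 0.058). It was also lost against DZ and LZ alone (0.45, adjusted p = 0.0857). Without the cells of any state that hold RNA of other types, 3 of them prePC, it was lost too (0.37, adjusted p = 0.19). Mouse 3 has 10 prePC, the least allowed per sum, so that setting drops its sum if any of the 3 were its own. With at least 20 cells per sum, only mouse 2 is left, as 1 sum assumed to vary like the other states. There Tap2 stood at 0.20 (adjusted p = 0.656) and Tapbp at 0.60 (adjusted p = 0.185). Of the 49 prePC, 40 lay in the cluster of preMem cells and 9 elsewhere. The 40 had 2119 CPM of H2-K1 and 2739 of B2m outside immunoglobulin genes, and the 9 had 1063 and 1369. Those 9 carry 174 H2-K1 UMIs and 224 B2m UMIs, and no test was made between clusters.

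With TMM scaling, plasma cells had the highest levels of the heavy and light chain transcripts. All 6 members rose over the GC average, against 25.9% of 8473 genes that rose. B2m was at 4950, 4792 and 2962 CPM in the PC of mice 1, 2 and 3, and changed by 2.66 ± 0.09 (edgeR, adjusted p = 4.85e-13), a 6.32-fold difference. H2-K1 was at 4520, 4497 and 3067, and changed by 2.54 ± 0.11 (adjusted p = 1.96e-11). H2-D1 was at 4058, 4012 and 2944, and changed by 2.20 ± 0.09 (adjusted p = 1.02e-11). On this scale every PC value of these 3 exceeded every value of any other state. As a share of all UMIs that was not so. Without scaling factors B2m was at 2789, 2774 and 2080 CPM in PC and at 2343, 2167 and 2351 in prePC. H2-K1 was then at 2547, 2603 and 2153 in PC, overlapping preMem (1776 to 2328) and prePC (1570 to 2159), and H2-D1 at 2286, 2322 and 2067, overlapping both preMem (1889 to 2231) and prePC (1728 to 2351). All 3 genes stayed above the GC states on either scale. Tapbp, at 338, 299 and 197 CPM, changed by 1.96 ± 0.15 (adjusted p = 2.05e-08). The median of the 6 was 2.08, beside -0.09 over all genes.

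For the transporter genes the call itself depended on how PC were scaled. With TMM scaling Tap1, at 251, 213 and 143 CPM, changed by 1.0 ± 0.11 (edgeR, adjusted p = 1.2e-06) and Tap2, at 215, 221 and 187, by 0.69 ± 0.13 (adjusted p = 0.000319). The TMM factors of PC were 0.566, 0.581 and 0.706, beside 1.16 to 1.17 in DZ, which raises all PC values relative to a share of all UMIs. With no scaling factors, an alternative added after the data were seen, Tap1 stood at 0.09 (adjusted p = 0.484) and Tap2 at -0.21 (adjusted p = 0.21). On that scale the median of all genes was -1, and only 991 of 6943 calls were higher, beside 2192 of 4497 with TMM. H2-K1, H2-D1, B2m and Tapbp still rose there, by 1.64, 1.30, 1.75 and 1.05 (adjusted p of 1.77e-05 or lower in edgeR). Leaving immunoglobulin genes out before TMM scaling gave Tap1 1.03 and Tap2 0.72, close to the main values. Without barcode series 2, PC are left with 1 sum of 11 cells from mouse 2, assumed to vary like the others, and Tap1 stood at 0.02 and Tap2 at -0.36 (adjusted p = 0.995 and 0.641).

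**Figure D3:**
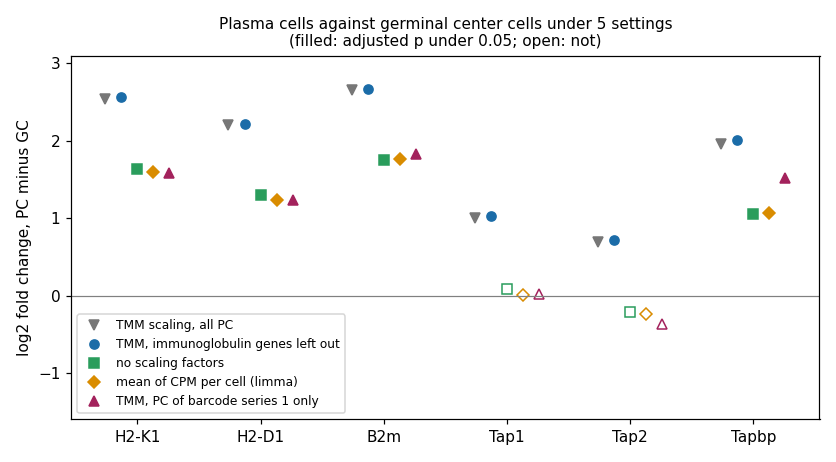
Log2 fold change of PC minus the GC average for each gene under 5 settings; filled symbols passed an adjusted p of 0.05. H2-K1, H2-D1, B2m and Tapbp stay above 1 in all 5, while Tap1 and Tap2 lie between -0.36 and 0.09 in 3 of them.

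Outside immunoglobulin genes, PC called G1 and PC called S or G2M differed widely in heavy and light chain transcripts. This is described without a test. Values are CPM of UMIs outside immunoglobulin genes. In the 91 G1 cells B2m was at 7304, 6436 and 4706 in mice 1, 2 and 3, and in the 46 cycling cells at 2296, 2249 and 1592. H2-K1 was at 5906, 5620 and 4853 in G1 and at 2747, 2574 and 1663 in cycling cells, and H2-D1 at 4984, 4690 and 4087 against 2737, 2655 and 2042. The G1 and cycling values did not overlap for any of these 3 genes. Tap1 did not show that split, with 218, 166 and 205 in G1 and 246, 232 and 94.6 in cycling cells. Immunoglobulin genes took 48.0% of UMIs in G1 PC and 20.1% in cycling PC, and series 2 held 84 of the 91 and 33 of the 46. Within series 2 alone the mean of B2m outside immunoglobulin genes was 6224 ± 1298 CPM in G1 and 2016 ± 534 in cycling cells. On this scale the gap was as large there. The 20 PC of series 1 had 2586 ± 570 CPM of B2m, and 7 of them were in G1.

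The balance among the 6 transcripts also differed by state. These are shares of UMIs, compared across states only. Tap1, Tap2 and Tapbp together made up 12.9% ± 0.918 (SD, n = 3) of the UMIs of the 6 members in DZ, 13.4% ± 0.989 in LZ, 10.9% ± 0.719 in LZtoDZ, 9.37% ± 0.306 in preMem, 9.73% ± 1.65 in prePC and 5.46% ± 0.208 in PC. A share within the 6 members does not depend on the scaling factors. The PC shares, from 5.22% to 5.61%, lay below those of every other state. H2-D1 made up 57.7% ± 1.46 of the UMIs of both heavy chains in DZ, 53.7% ± 0.411 in LZ, 49.7% ± 2.80 in LZtoDZ, 49.9% ± 1.66 in preMem, 52.7% ± 3.57 in prePC and 47.8% ± 1.01 in PC. Its share in each mouse was lower in LZ than in DZ and lower still in preMem, while prePC, at 56.6%, 49.5% and 52.1%, overlapped most states. The 6 members made up 0.274% ± 0.0364 of all UMIs in DZ, 0.346% ± 0.0458 in LZ, 0.231% ± 0.0400 in LZtoDZ, 0.672% ± 0.0784 in preMem, 0.683% ± 0.0789 in prePC and 0.762% ± 0.0826 in PC. Outside immunoglobulin genes the share in PC was 1.19% ± 0.214.

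Per cell, after thinning each to 2000 UMIs, the heavy chains were likewise highest outside the GC. Thinning dropped 14 DZ cells, 20 LZ cells and 9 preMem cells below that depth. The median cell then held 1 H2-K1 UMI in DZ and LZtoDZ, 2 in LZ, 4 in preMem and prePC and 5 in PC. At the 10th percentile a preMem, prePC or PC cell still held 1 H2-K1 UMI and a DZ, LZ or LZtoDZ cell held 0. For B2m the median was 1 in the 3 GC states, 3 in preMem, 5 in prePC and 4 in PC. The median was 0 in all states for Tap1, Tap2 and Tapbp, so these could not be followed per cell at this depth. No state of the matrix lacks class I transcripts, so the level that free RNA would give could not be measured.

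Within the zones, most members were lower in S phase than in G1. In DZ, 5 of the 6 fell from G1 to S, against 12.2% of 9374 genes that fell. H2-K1 was at 755, 833 and 584 CPM in the G1 DZ cells of mice 1, 2 and 3 and at 520, 569 and 424 in S, a change of -0.52 ± 0.10 (edgeR, adjusted p = 0.000251). H2-D1 was at 1056, 1123 and 901 in G1 and 774, 773 and 636 in S (-0.50 ± 0.07, adjusted p = 4.82e-06). Tap2 was at 192, 198 and 188 in G1 and 124, 136 and 125 in S (-0.59 ± 0.10, adjusted p = 3.89e-05). G1 and S did not overlap for these 3 genes. Tapbp changed by -0.51 ± 0.11 (adjusted p = 0.000659) and B2m by -0.35 ± 0.08 (adjusted p = 0.00156). Tap1 did not pass, at -0.20 ± 0.10 (adjusted p = 0.163). The median of the 6 was -0.50, beside -0.02 over all genes.

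**Figure D4:**
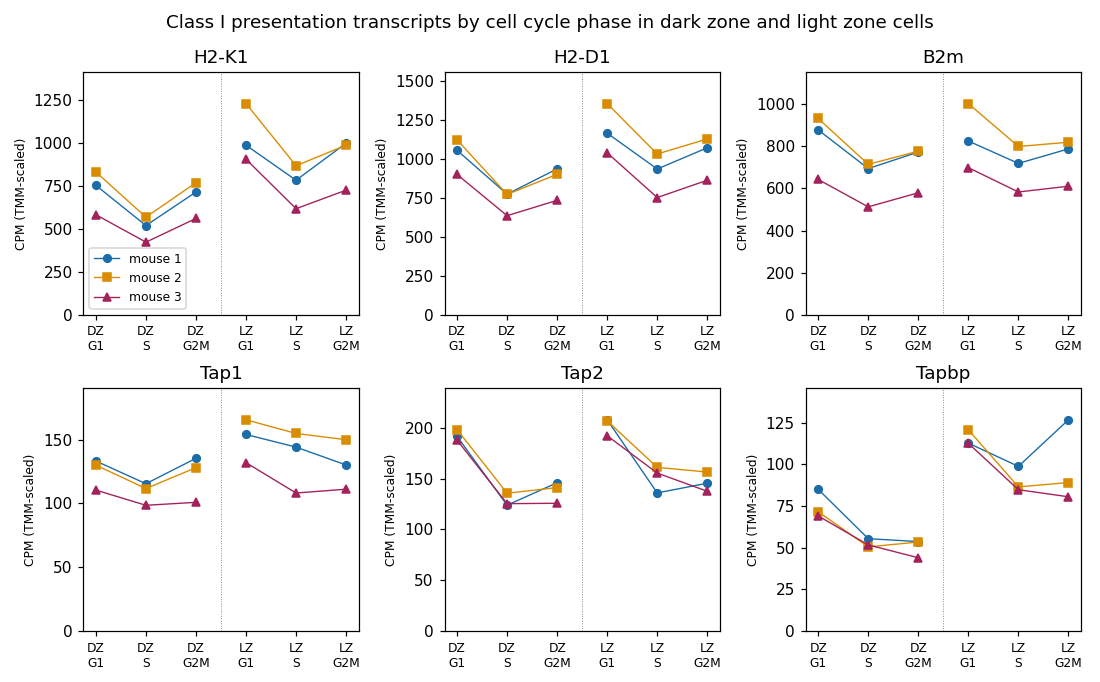
CPM (TMM-scaled) of the 6 genes by the authors' cell cycle call in DZ and LZ cells, with 1 line per mouse and axes from 0. S lies below G1 in each of the 3 mice and both zones for all 6 genes, and mouse 3 is the lowest line for H2-K1, H2-D1 and B2m.

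In LZ also 5 of the 6 fell from G1 to S, against 10.1% of 9374 genes. The changes were -0.47 ± 0.10 for H2-K1 (edgeR, adjusted p = 0.000911), -0.39 ± 0.07 for H2-D1 (adjusted p = 0.00013), -0.41 ± 0.10 for Tap2 (adjusted p = 0.00239), -0.37 ± 0.10 for Tapbp (adjusted p = 0.00746) and -0.26 ± 0.08 for B2m (adjusted p = 0.0162). Tap1 again did not pass, at -0.16 ± 0.10 (adjusted p = 0.285). Tapbp and B2m lost their calls without mouse 2 (adjusted p = 0.0821 and 0.159) and without mouse 3 (0.175 and 0.0997), and H2-K1 without mouse 3 (0.0664). Without the mouse block only Tap2 passed. The median UMI count was 5340 in G1 and 7974 in S cells of LZ, and 5804.5 and 9527 in DZ, so depth moved with phase.

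Fewer members passed between G1 and G2M than between G1 and S. From G1 to G2M 3 of the 6 fell in DZ, against 14% of 9374 genes: Tapbp by 0.57 ± 0.11 on the log2 scale (edgeR, adjusted p = 0.00015), Tap2 by 0.49 ± 0.10 (adjusted p = 0.00029) and H2-D1 by 0.26 ± 0.07 (adjusted p = 0.00579). H2-K1 was at 716, 770 and 562 CPM in G2M DZ cells, overlapping G1, and its change was -0.08 ± 0.10 (adjusted p = 0.591). B2m stood at -0.20 ± 0.08 (adjusted p = 0.0638) and Tap1 at -0.05 ± 0.10 (adjusted p = 0.791). In LZ 2 of the 6 fell, against 11.7% of genes, Tap2 by 0.46 ± 0.10 (adjusted p = 0.00132) and H2-D1 by 0.22 ± 0.07 (adjusted p = 0.0217). H2-D1 lost its call in DZ without mouse 2 (adjusted p = 0.056) or mouse 3 (0.0811), and in LZ likewise (0.129 and 0.216). Without mouse 1, H2-K1 (-0.32, adjusted p = 0.0285) and Tapbp (-0.47, adjusted p = 0.00232) passed in LZ as well.

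Whether the phase differences themselves differed between zones was tested with an interaction term. For S minus G1, LZ minus DZ, 0 of the 6 members passed edgeR's test, against 0.0107% of 9374 genes in either direction. The lowest unadjusted p was 0.222, for Tap2, whose difference was 0.17 ± 0.14. For G2M minus G1 the count was 0 as well, against 0.128% of genes. There the lowest unadjusted p was 0.0767, for Tapbp at 0.29 ± 0.16, and the highest adjusted p was 1. DESeq2 also passed 0 members for both, and gave Tapbp no adjusted p for S. With standard errors of 0.10 to 0.16, differences between zones of that size were not detectable here.

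Mouse 3 had the lowest level of each of the 6 members in all 5 states other than prePC. Relative to the mean of mice 1 and 2, the level in mouse 3 was 0.760 in DZ, 0.784 in LZ, 0.735 in LZtoDZ, 0.766 in preMem and 0.680 in PC for H2-K1. For B2m the ratios ran from 0.608 in PC to 0.796 in preMem, and for H2-D1 from 0.730 in PC to 0.846 in preMem. Tap2 was nearer to the other mice in the zones, at 0.932 in DZ and 0.967 in LZ, and at 0.660 in LZtoDZ. In prePC, where mouse 3 gave 10 cells, the order was different, and H2-K1, H2-D1, Tap1, Tap2 and Tapbp were highest in mouse 3. Of 2706 genes with a mean of at least 50 CPM, 46 (1.70%) were lowest in mouse 3 in all 5 states, and 16 (0.591%) each in mouse 1 and in mouse 2. Genes of the pathway with the same pattern were H2-Q4, H2-Q6, H2-Q7, H2-T22, Psmb8, Psmb10, Psme1 and Psme2. H2-Q7 had ratios from 0.500 in preMem to 0.674 in PC. Rela, Creb1 and the constitutive proteasome subunit Psmb6 were lowest in mouse 3 in 1 or 2 states. Among other list genes, Irf1 and Nfyc were lowest there in 4 states, H2-T23 and Psmb7 in 3, and H2-T24 and Erap1 in 2. These are values of 1 animal against the other two, and the animal cannot be told apart from its staining and hashtag.

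**Figure D5:**
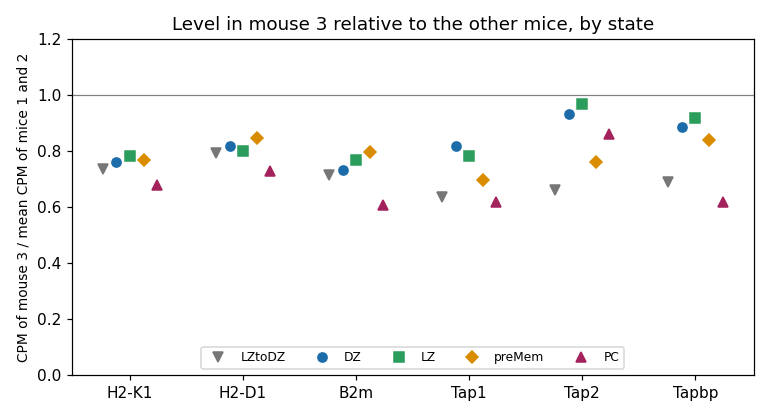
Level of each gene in mouse 3 divided by the mean of mice 1 and 2, by state, on an axis from 0 with a line at 1. All 30 points lie below 1, from 0.608 for B2m in PC to 0.967 for Tap2 in LZ.

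Other class I genes of the pathway were read from lists chosen by function. Of 12 further heavy chains and class I-like molecules, 11 were in the matrix and 9 were tested. H2-Q4, H2-Q6, H2-Q7, H2-T22, H2-T23 (the Qa-1 gene), H2-T24 and H2-M3 are nonclassical heavy chains that pair with beta-2 microglobulin. Relative to LZ, 8 of the 9 rose in preMem, against 16.7% of all genes, with a median of 1.41 beside 0.03 over all genes, among them H2-Q7 (2.01 ± 0.17, edgeR, adjusted p = 5.66e-07) and H2-T24 (2.19 ± 0.25, adjusted p = 7.71e-06). The largest changes there were those of Fcgrt, the neonatal Fc receptor, and Cd1d1, which presents lipids, with 23 and 14 UMIs in preMem against 6 and 4 in LZ. In PC 8 of the 9 rose over the GC average, against 25.9% of all genes, led by Cd1d1 at 27 UMIs in PC, H2-Q7 (4.05 ± 0.12, adjusted p = 1.6e-13), H2-T24 (3.97 ± 0.21, adjusted p = 1.53e-10) and H2-T23 (2.00 ± 0.11, adjusted p = 2.21e-10). H2-Q7 was at 54.7, 63.2 and 32.1 CPM in LZ, 220, 265 and 121 in preMem and 835, 783 and 546 in PC. Without scaling factors 7 of the 9 still rose in PC, and H2-Q4 fell by 0.60 (adjusted p = 0.000643) where TMM scaling gave 0.30 ± 0.11 (adjusted p = 0.0311). In LZtoDZ 5 of the 9 fell, against 24.3% of all genes, with H2-T24 at -2.27 ± 0.46 (adjusted p = 0.000877) from 138 UMIs in LZ to 6, and H2-T23 at -1.22 ± 0.15 (adjusted p = 7.94e-06). From DZ to LZ 4 rose, against 11.3% of all genes. From G1 to S 6 fell in DZ, against 12.2%, and 4 in LZ, against 10.1%. In prePC 6 rose, against 10.5%. H2-Q6 and H2-Q7 are near-identical copies of each other, and the authors' counting could split their reads.

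Proteasome genes, whose products make the peptides, were read in the same way, with no test of a difference from the members. The immunoproteasome subunits Psmb8, Psmb9 and Psmb10 and the activator subunits Psme1 and Psme2 did not pass in preMem against LZ, where 0 of the 5 did so in edgeR and the median was 0.06. At an unadjusted p under 0.05, 0 were higher and 1 was lower, and the DESeq2 Wald test called 1 higher and 1 lower. In LZtoDZ 3 of the 5 fell, against 24.3% of all genes, by between 0.32 and 0.42 on the log2 scale. All 3 constitutive catalytic subunits (Psmb5, Psmb6, Psmb7) rose there, against 22.5% of all genes, with Psmb7 at 0.75 ± 0.09 (adjusted p = 7.54e-06). All 3 constitutive subunits fell in preMem, against 14.7% of all genes, with Psmb5 at -0.70 ± 0.16 (edgeR, adjusted p = 0.00359). In prePC 3 of the 5 immunoproteasome list genes rose, against 10.5% of all genes: Psmb10 by 0.52 ± 0.12 (edgeR, adjusted p = 0.00538), Psmb9 by 0.50 ± 0.11 (adjusted p = 0.00441) and Psme1 by 0.46 ± 0.12 (adjusted p = 0.0149). In PC 4 of the 5 rose with TMM scaling, against 25.9% of all genes, led by Psmb9 at 0.74 ± 0.11 (edgeR, adjusted p = 2.21e-05). Without scaling factors, where 991 of 6943 calls over all genes were higher, 0 of the 5 rose and 4 fell, with Psmb9 at -0.14 (adjusted p = 0.329). The constitutive list turned likewise in PC, from 2 of 3 higher to 2 of 3 lower.

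Partners of the peptide loading complex in the ER rose in PC. Calr (calreticulin) and Canx (calnexin), which hold folding glycoproteins, Pdia3 (the disulfide isomerase ERp57), Tapbpl (the tapasin-related editor TAPBPR) and Erap1 (the ER aminopeptidase that trims peptides) all rose there, 5 of 5 against 25.9% of all genes, with a median of 2.15. Calr changed by 2.84 ± 0.11 (edgeR, adjusted p = 1.8e-12), Tapbpl by 2.49 ± 0.13 (adjusted p = 1.43e-10) and Pdia3 by 2.15 ± 0.11 (adjusted p = 7.69e-11). Without scaling factors 3 of the 5 rose in PC. In preMem 0 rose and 2 fell, against 14.7% of all genes that fell, Calr by 0.47 ± 0.15 (adjusted p = 0.0233) and Pdia3 by 0.48 ± 0.15 (adjusted p = 0.0202). In LZtoDZ Calr, Canx and Erap1 rose and Tapbpl fell.

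Among 12 transcription factors known to act on class I genes, 11 were tested in the fit of states. Irf1 and Irf2, factors of interferon signalling, rose in preMem over LZ, by 1.79 ± 0.19 (edgeR, adjusted p = 5.04e-06) and 0.76 ± 0.19 (adjusted p = 0.00573), and both rose in prePC over the GC average. Nfyb fell in preMem by 0.54 ± 0.11 (adjusted p = 0.00237). Irf1 was at 52.2, 80.8 and 39.7 CPM in LZ and 199, 290 and 116 in preMem, with no overlap. In LZtoDZ Rfxank and Rfx5 of the X box complex, Irf1, Irf2 and the NF-kB subunit Rela fell. In PC Irf1 rose (1.18 ± 0.24, edgeR, adjusted p = 0.000625) and Rfx5 fell by 1.81 ± 0.36 (adjusted p = 0.000476), as did Rela by 0.40 ± 0.13 (adjusted p = 0.0234). Without scaling factors Irf1 stood at 0.29 in PC (adjusted p = 0.272). From DZ to LZ Irf1, Rela and Rfx5 rose, and Nfyb and Nfyc, subunits of the factor that binds the Y box, fell.

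Across the 18 sums of mouse and state, each member followed the mean of the other 5 (Pearson's r of log2 CPM), from 0.835 for Tap2 to 0.977 for H2-D1. Among 2532 other genes with a mean of at least 50 CPM, those most like the mean of the 6 members were H2-T22 (r = 0.989), Zbp1 (0.984), H2-T23 (0.956), Ly6a (0.954), Ctss (0.949), Sdf2 (0.949), Selplg (0.949) and Mcl1 (0.944). Zbp1 is an interferon-induced nucleic acid sensor, and Ctss is a lysosomal protease of class II presentation. Within the 23 GC sums of mouse, state and phase, the most alike of 2557 genes included H2-T22 (0.898), Shisa5 (0.889), Psmb8 (0.885), Tbc1d1 (0.884), H2-Oa (0.882), Stat3 (0.881) and H2-Q4 (0.877). There the members followed each other less closely, from 0.686 for Tapbp to 0.966 for H2-D1. The sums share 3 mice and differ in depth and scaling factor, so these correlations are descriptions.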

How the data were processed

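The deposited matrix holds raw UMI counts per gene and cell, made by the authors with Cell Ranger and Seurat on mm10/GRCm38, per the submitters' processing notes, without versions. Filters and doublet treatment are unstated in the labels, and no doublet caller was run. States, phases and mouse labels are the authors' deposited annotation. Counts were summed per mouse and state (18 sums), or also phase, with at least 10 cells, so replicates are the 3 mice. Sums went to edgeR's quasi-likelihood test (edgeR 4.0.16, R 4.3.3) with filterByExpr, TMM scaling and mouse as a block, which left 8473 genes for states and 9374 for phases. P-values are two-sided and Benjamini-Hochberg adjusted over all genes, with a threshold of 0.05. GC is the average of DZ, LZ and LZtoDZ on the log scale. The fit was tested on simulated counts. Alternatives used DESeq2 1.42.0 and limma 3.58.1 (log2 of mean CPM plus 1). Poisson intervals were not printed. Each SD stated is the spread between mice. The SE of a fold change is its absolute log2 value divided by the square root of edgeR's quasi-likelihood F statistic. That statistic uses a dispersion moderated across genes and taken after the mouse block, so the SE is not the spread between mice.

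Mouse is a block because the states come from the same animals. Deviations from the state means had a median correlation of 0.0912 over 45 same-mouse pairs of sums and -0.0512 over 90 pairs of different mice (2706 genes). The 6 members and all lists were chosen with earlier results of these data known. From each list, up to 4 genes with the largest change past the threshold in each direction were named, and other list genes named were chosen after their values were seen. Results of 1 list gene are not reported here. Likeness ranks genes of at least 50 CPM by correlation with the members' mean. Marker lists for B lineage, germinal center, dark zone, light zone, memory and plasma cells and for 5 other cell types were read as in the report. Sequences come from RefSeq promoters of GRCm38.p6, and gene coordinates from GENCODE M21. Python 3.11.15, pandas 2.3.3 and matplotlib 3.10.9 were used.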

Additional observations from a re-analysis of the deposited data

How the results depend on the processing

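Counts of the 6 members that passed are given first. DZ to LZ (2) went to 5 with the DESeq2 Wald test, 4 with at least 20 cells per sum, 5 without immunoglobulin genes, 0 with limma, and 1 to 2 with a mouse left out. In G1 that count (2) went to 4, 4, 4 and 1 under those settings, 1 without the replicate block and 1 to 2 with a mouse left out. LZtoDZ minus LZ (6) went to 3 without the replicate block and 3 to 4 with a mouse left out. G1 to S in LZ (5) went to 1 without the replicate block, 3 with limma and 2 to 5 with a mouse left out. G1 to G2M in LZ (2) went to 4 with DESeq2 size factors, 5 with the Wald test, 5 without immunoglobulin genes, 1 without the replicate block, 1 without scaling factors, 0 with limma and 1 to 4 with a mouse left out, and in DZ (3) to 1 with limma. Dropping the replicate block changed no other count of members by over 1.5 times.

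Tap2 turned direction in preMem minus LZ with limma (-0.145) and without scaling factors (-0.0591), and in PC minus GC with limma (-0.243), without barcode series 2 (-0.362) and without scaling factors (-0.21). Zone differences in phase change near 0 also turned: B2m for G2M was -0.00955 with no filter on low counts and ran from -0.0379 to 0.0585 with a mouse left out. Likewise Tap2 for G2M ran from -0.00266 to 0.0905, H2-K1 for S from -0.014 to 0.142 and Tap1 for S from -0.00923 to 0.14. The causes were not tested.

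Counts over all genes moved by more than 1.5 times as follows. DZ to LZ (1646 genes) gave 886 without mouse 2, 755 without mouse 3, 2549 without immunoglobulin genes and 40 with limma. LZtoDZ minus LZ (3969) gave 1567 with limma. The preMem count (2653) gave 1524 and 1747 without mice 2 and 3 and 1024 with limma, and the prePC count (1521) gave 980 and 937 without mice 1 and 2, 775 with at least 20 cells per sum and 4132 with limma. The PC count (4497) gave 571 without barcode series 2 and 6943 without scaling factors. Without scaling factors the calls that were higher in prePC went from 887 of 1521 to 751 of 1751, from G1 to S in DZ from 1586 of 2729 to 1307 of 2824, and to G2M in DZ from 1493 of 2804 to 1230 of 2851. In preMem in G1 they went from 952 of 1827 to 782 of 1901. Without mouse 3, G1 to S gave 1688 genes in DZ and 1204 in LZ (2305), and G1 to G2M 1748 in DZ and 1475 in LZ (2404). Limma moved these to 573, 572, 736 and 1172. In G1, DZ to LZ (1160) gave 645 and 478 without mice 2 and 3 and 161 with limma, and preMem (1827) gave 1156, 1080 and 1145. The zone difference in phase change, called for 1 gene in S and 12 in G2M, ran from 0 to 87 and from 1 to 224. The depth of prePC, 24 Tap2 UMIs in its smallest sum, limits the transporter values there.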
